A study of Homo sapiens with 4 samples.

Results

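The 6 gene windows described here hold KLF1, NFE2, GFI1B, ZFPM1, BCL11A and MYB, regulators of the red cell lineage, and are set by position on hg19. They span 468 tiles of 1 kb, of which 464 are among the genome's 2598309 tiles with reads. The windows are KLF1 at chr19:12990001-13003000 (13 kb), NFE2 at chr12:54680001-54705000 (25 kb), GFI1B at chr9:135845001-135890000 (45 kb), ZFPM1 at chr16:88515001-88605000 (90 kb), BCL11A at chr2:60670001-60790000 (120 kb) and MYB with its upstream interval at chr6:135370001-135545000 (175 kb). Chromatin immunoprecipitation and sequencing (ChIP-seq) was done with an antibody against DPF2 in 2 libraries and with an antibody against crotonylated lysine 14 of histone H3 (H3K14cr) in 2 libraries. All 4 libraries came from K562 cells labelled wild type and grown without any labelled treatment. K562 is an established human leukaemia line with erythroid features and a rearranged genome, so it stands for a single transformed clone and not for normal erythroid precursors. Levels are given as counts per 1000000 reads of the library (CPM), per 1 kb tile or averaged per kb of a window.

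DPF2 is a subunit of the BAF chromatin remodelling complexes, and its tandem PHD fingers bind the tail of histone H3 acylated at lysine 14. Crotonylation is such an acylation and, like acetylation, is known from active promoters and enhancers. KLF1 and NFE2 activate globin and other red cell genes, GFI1B represses genes of other programmes, and ZFPM1 (also called FOG1) is the cofactor that GATA1 binds in erythroid and megakaryocytic cells. BCL11A silences the fetal globin genes in adult red cells. MYB keeps progenitors dividing, and its expression in erythroid cells is known to depend on distal enhancers between MYB and its neighbour HBS1L.

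The gene starts differ in sequence class, and 4 promoters are shown to give the letters at starts that range from few CG pairs to many. RefSeq promoter entries of GRCh38.p14 matched 5 of the 6 genes, with 10 entries in all, and NFE2 had none. Each line gives the 250 bases before the start, 5′ to 3′ on the gene's strand, and capitals mark GATA words (TGATAA or AGATAA, either strand) and CACCC words (either strand). The coordinates of these entries belong to GRCh38.p14 and were not set against the hg19 tiles.
KLF1, chr19:12887202-12887451, minus strand: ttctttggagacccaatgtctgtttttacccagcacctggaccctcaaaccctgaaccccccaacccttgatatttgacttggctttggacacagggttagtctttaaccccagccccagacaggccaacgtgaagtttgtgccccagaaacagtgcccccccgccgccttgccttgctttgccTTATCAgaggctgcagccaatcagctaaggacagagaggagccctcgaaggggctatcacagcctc
GFI1B, second of 2 entries, chr9:132978444-132978693, plus strand: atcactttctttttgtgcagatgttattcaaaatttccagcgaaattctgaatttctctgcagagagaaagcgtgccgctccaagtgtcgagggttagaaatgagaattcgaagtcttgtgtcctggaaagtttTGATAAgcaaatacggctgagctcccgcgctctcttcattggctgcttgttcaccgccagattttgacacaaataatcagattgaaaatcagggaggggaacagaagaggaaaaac
ZFPM1, chr16:88453030-88453279, plus strand: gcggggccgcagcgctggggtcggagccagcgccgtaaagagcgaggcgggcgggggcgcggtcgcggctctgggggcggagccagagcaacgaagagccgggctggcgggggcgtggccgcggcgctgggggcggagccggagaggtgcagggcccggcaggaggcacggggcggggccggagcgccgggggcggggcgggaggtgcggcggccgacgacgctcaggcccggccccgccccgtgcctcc
MYB, chr6:135181058-135181307, plus strand: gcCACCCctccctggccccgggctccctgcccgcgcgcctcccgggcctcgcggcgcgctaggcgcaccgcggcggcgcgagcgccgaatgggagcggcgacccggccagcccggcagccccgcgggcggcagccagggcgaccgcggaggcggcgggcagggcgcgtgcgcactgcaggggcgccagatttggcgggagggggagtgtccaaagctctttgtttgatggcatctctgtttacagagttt
The KLF1 promoter had 55.2% G and C, with 4 CG pairs, a GATA word 66 bases before the start and 2 CCAAT words. The GFI1B entry had 42.8% G and C with 9 CG pairs and a GATA word 116 bases before the start, while the other GFI1B entry (46.8% G and C, 5 CG pairs) held none. ZFPM1 (83.2%, 39 CG pairs) held neither word, and MYB (75.6%, 34 CG pairs) held a CACCC word 248 bases before the start and no GATA word. The 5 BCL11A entries, not shown, held 1, 0, 5, 1 and 4 CACCC words and no GATA word. Among 34788 RefSeq promoters of this length the median was 58% G and C with 11 CG pairs, 14.6% held a GATA word, 54.7% a CACCC word and 32% a CCAAT word. A word match describes the letters and not the binding of a factor.

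Depth was 7787444 and 13317496 reads in the DPF2 libraries and 10880366 and 17369133 reads in the H3K14cr libraries. Libraries of the same antibody agreed within sampling noise over all tiles together and in the windows, and were counted as 1 sample. In the windows' tiles chi-square divided by its degrees of freedom came to 0.911 between the DPF2 libraries and 1.03 between the H3K14cr libraries, against 1.21 to 1.57 between antibodies. At the genome's tiles of 150 reads or more it was 3.17 for DPF2 (312 tiles) and 1.23 for H3K14cr (1169 tiles). The test between antibodies therefore measures technical spread, and the labels do not mention separate cultures. Intervals are at 95% and cover counting error only. No control library was analysed here, and the part of copy number and mappability in the levels was not tested.

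The windows of KLF1, NFE2, GFI1B and ZFPM1 carried several times the genome's read level for both antibodies, and those of BCL11A and MYB less. Over the KLF1 window DPF2 stood at 2.15 and 2.03 CPM per kb in its 2 libraries and H3K14cr at 2.78 and 2.72, and the pooled levels were 5.39 and 7.13 times the genome mean of 0.385 CPM per tile. For ZFPM1 the levels were 1.81 and 1.78 CPM per kb for DPF2 and 2.0 and 2.13 for H3K14cr. In the NFE2 window DPF2 had 1.71 and 1.71 CPM per kb and H3K14cr 2.13 and 2.18. GFI1B had 1.42 and 1.54 CPM per kb for DPF2 and 1.81 and 1.91 for H3K14cr. In each of these 4 windows both H3K14cr libraries stood above both DPF2 libraries.

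The long windows were lower. MYB had 0.750 and 0.757 CPM per kb for DPF2 and 0.837 and 0.876 for H3K14cr, 1.96 and 2.24 times the genome mean. BCL11A had 0.606 and 0.651 CPM per kb for DPF2 and 0.633 and 0.651 for H3K14cr, and here the libraries of the antibodies overlapped. In order of pooled DPF2 level the windows ran KLF1, ZFPM1, NFE2, GFI1B, MYB and BCL11A, at 2.07, 1.79, 1.71, 1.5, 0.755 and 0.634 CPM per kb. The counting intervals of ZFPM1 (1.73 to 1.86) and NFE2 (1.6 to 1.82) overlapped. For H3K14cr the order was KLF1, NFE2, ZFPM1, GFI1B, MYB and BCL11A, and the intervals of NFE2 (2.05 to 2.27) and ZFPM1 (2.02 to 2.13) overlapped.

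**Figure D1:**
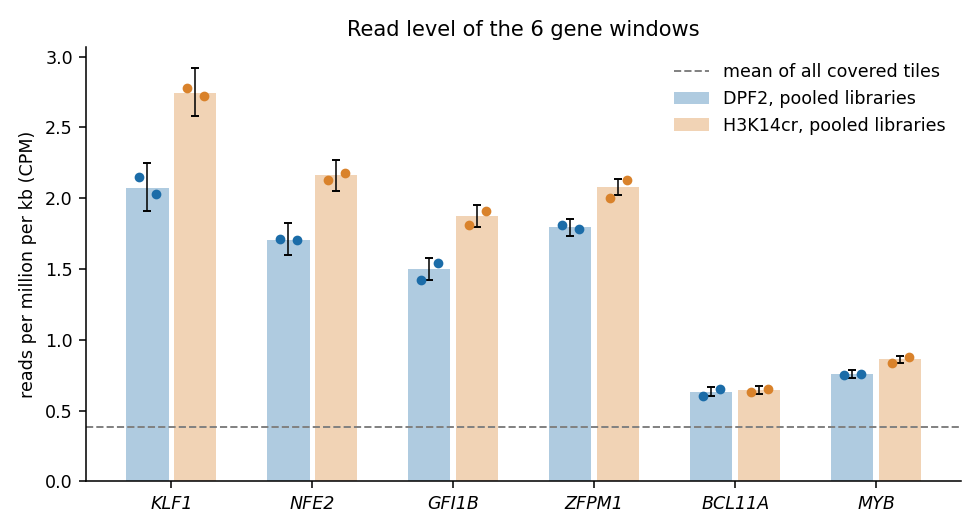
Read level of each window in CPM per kb, for DPF2 on the left of each pair and H3K14cr on the right. Bars are pooled libraries with 95% counting intervals, points are the 2 libraries of each antibody, and the dashed line is the genome mean of 0.385 CPM per tile, which all 12 bars exceed.

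Read levels also differed between the chromosomes that hold the windows. Chromosomes 19 and 16, which hold KLF1 and ZFPM1, had higher means than those of the other windows, and NFE2 was the highest against its own chromosome's mean, with 4.13-fold for DPF2 and with 5.21-fold for H3K14cr. KLF1 stood at 3.16 and 3.96, ZFPM1 at 3.07 and 3.45, GFI1B at 3.57 and 4.35, MYB at 1.84 and 2.11 and BCL11A at 1.54 and 1.58. Against the median tile of the surrounding 1 Mb, the median tile of the KLF1 window was 2.79 times as high for DPF2 and 2.65 times for H3K14cr. The same ratio was 2.2 and 2.76 for NFE2, 2.07 and 2.29 for GFI1B and 1.86 and 2.2 for MYB. It was 1.5 and 1.57 for ZFPM1 and 1.33 and 1.46 for BCL11A.

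High tiles were common in the windows, while tiles that stood sharply above their own surroundings were few. Of the 468 tiles, 188 (40.2%) were among the top 5% of the genome by DPF2 level, against 5.2% of all covered tiles, and 192 (41.0%) by H3K14cr level, against 5.16%. The share was 84.6% of KLF1 tiles for DPF2 and 76.9% for H3K14cr, and 11.7% and 10.0% of BCL11A tiles. A tile was called enriched when both libraries of the antibody exceeded its background at least 3-fold in a one-sided Poisson test, with an adjusted p (Benjamini-Hochberg over all covered tiles) no higher than 0.001. That background was the chromosome mean or the average of the 20 kb around the tile, whichever was larger. By that rule 1 tile was called for DPF2 (0.221% of all covered tiles), 4 for H3K14cr (0.425%) and 1 for both (0.165%), all of them in the MYB window. The share of the windows' tiles was 0.214% for DPF2, at the level of the genome, and 0.855% for H3K14cr, and no tile of the other 5 windows was called. With the libraries of an antibody summed before calling, DPF2 had 5 tiles (1.07%, against 0.565% of all covered tiles). Of these, 1 lay in the NFE2 window and 4 in the MYB window. H3K14cr had the same 4 MYB tiles as before (0.855%, against 0.676%).

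The same windows held many more calls when the background was the chromosome mean alone. DPF2 then had 59 tiles (12.6%, against 1.11% of all covered tiles), H3K14cr 100 (21.4%, against 2.12%) and 57 were shared (12.2%, against 0.95%). By gene, in the order DPF2 and H3K14cr, these were 5 and 6 tiles in KLF1, 10 and 18 in NFE2, 11 and 25 in GFI1B, 22 and 30 in ZFPM1, 3 and 7 in BCL11A and 8 and 14 in MYB. As shares of a window they ran from 2.5% and 5.83% in BCL11A to 40.0% and 72.0% in NFE2, with 4.57% and 8.0% in MYB. The shared tiles made up 96.6% of the DPF2 tiles and 57.0% of the H3K14cr tiles, against 85.4% and 44.8% for all such tiles of the genome. Whether the windows' shares differ from the genome's was not tested. The DPF2 libraries were shallower, and calls over the chromosome mean were not repeated at equal depth. The part of depth in the antibodies' numbers of calls, shared fractions and lengths of called runs was not tested. The median fold over the surrounding 20 kb was 0.940 for DPF2 and 0.923 for H3K14cr in the windows, and 0.930 and 0.919 over all covered tiles.

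**Figure D2:**
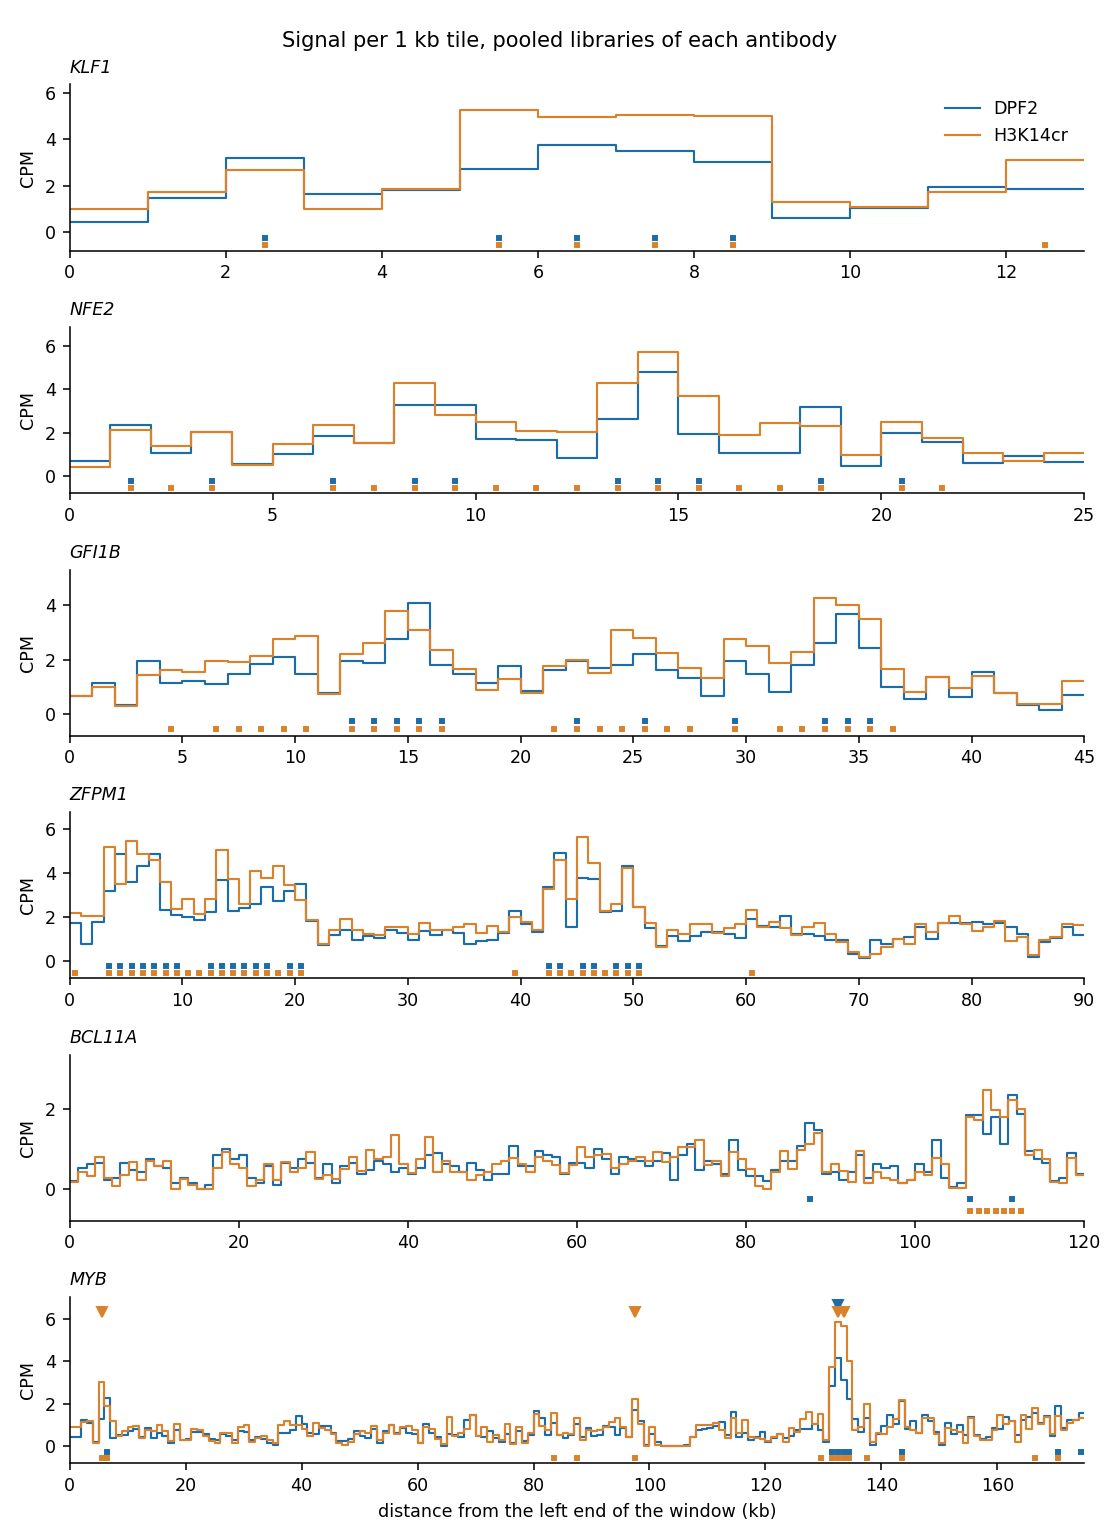
Level per 1 kb tile in CPM along each window, with the distance from the window's left end in kb, for the pooled libraries of DPF2 (blue) and H3K14cr (orange). Squares under the lines mark tiles called over the chromosome mean, and triangles above them mark tiles called over the surrounding 20 kb, which number 1 for DPF2 and 4 for H3K14cr and lie in the MYB window.

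KLF1, the activator of adult beta globin, carried a block of 4 kb in which both antibodies were raised. At chr19:12995001-12999000, where KLF1 itself lies by general knowledge of hg19, DPF2 averaged 3.25 CPM per tile, 4.94 times the chromosome mean, and H3K14cr 5.05 CPM, 7.30 times. All 4 tiles of the block were called over the chromosome mean for both antibodies. In every window the highest tile is the one whose fold over the surrounding 20 kb is highest in the lower of the antibody's libraries, which need not be the tile with the highest level. For DPF2 this was chr19:12996001-12997000. It had 3.47 and 3.91 CPM for DPF2 and 4.23 and 5.41 CPM for H3K14cr, and stood 2.56-fold (2.03 to 3.19) over the surrounding 20 kb for DPF2. For H3K14cr it was the neighbour chr19:12997001-12998000, with 3.47 and 3.53 CPM for DPF2 and 5.05 and 5.01 CPM for H3K14cr, where H3K14cr stood 2.75-fold (2.31 to 3.24) over its surroundings. In both tiles each H3K14cr library was above each DPF2 library, but limma called neither different (adjusted p = 0.472 and 0.242).

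The left end of the KLF1 block differed most between the antibodies. In chr19:12995001-12996000 DPF2 had 2.95 and 2.55 CPM and H3K14cr 5.06 and 5.35 CPM, a ratio of 0.516 (0.373 to 0.704) in pooled reads, and limma called it higher in H3K14cr (log2 difference -0.81, adjusted p = 0.0118). H3K14cr had its highest pooled level and pooled fold of the window (2.84-fold) in this tile, which fell outside the naming rule and was chosen after its values were seen. Left of the block, a single tile at chr19:12992001-12993000 was also called over the chromosome mean for both antibodies, with 4.11 and 2.63 CPM for DPF2 and 3.40 and 2.25 CPM for H3K14cr. There the libraries of the antibodies overlapped. The start of DNASE2, a neighbouring gene for a lysosomal DNase, lies at about that place by general knowledge.

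NFE2, the blood cell subunit of the NF-E2 factor, had its highest tile for both antibodies at chr12:54694001-54695000, over the gene's 5′ end by general knowledge. DPF2 had 5.27 and 4.58 CPM there and H3K14cr 5.15 and 6.10 CPM, so the libraries of the antibodies overlapped. Over the surroundings DPF2 stood 3.05-fold (2.49 to 3.7) and H3K14cr 2.71-fold (2.31 to 3.16). It was called for DPF2 in replicate 1, at 3.39-fold, but not in replicate 2, at 2.86-fold, and with the DPF2 libraries summed before calling it was called.

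H3K14cr was called over a longer stretch than DPF2 in the NFE2 window, at unequal depth. It was called over the chromosome mean in 13 tiles in a row, at chr12:54686001-54699000, with a mean of 2.93 CPM. DPF2 was called within that stretch in 4 shorter runs, the longest of them 3 kb at chr12:54693001-54696000 with a mean of 3.14 CPM. On either side of the highest tile lay tiles with less DPF2 than H3K14cr. In the adjoining tiles, chr12:54693001-54694000 and chr12:54695001-54696000, the ratios were 0.614 (0.44 to 0.85) and 0.523 (0.355 to 0.757). Neither was called by limma (adjusted p = 0.226 and 0.0863), and the tiles called different lay further out. In chr12:54692001-54693000 DPF2 had 0.514 and 0.976 CPM and H3K14cr 1.93 and 2.13 CPM. The ratio was 0.392 (0.214 to 0.683), and limma called the tile higher in H3K14cr (log2 difference -1.05, SE 0.26, adjusted p = 0.0146). In chr12:54697001-54698000 DPF2 had 1.28 and 0.901 CPM and H3K14cr 2.30 and 2.53 CPM, a ratio of 0.427 (0.251 to 0.698), and it was called as well (log2 difference -0.88, adjusted p = 0.0453). In both tiles the antibodies' libraries did not overlap. The next tile, chr12:54698001-54699000, lay the other way, with 2.83 and 3.38 CPM for DPF2 and 2.21 and 2.36 CPM for H3K14cr, and was not called (adjusted p = 0.517). It was chosen after its values were seen.

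GFI1B, a zinc finger repressor needed for red cells and platelets, had no tile called different and none called over its surroundings. Its highest tile for both antibodies, chr9:135879001-135880000, lies downstream of the gene by general knowledge. DPF2 had 3.47 and 3.83 CPM there and H3K14cr 4.14 and 3.92 CPM, so all 4 libraries lay close together. Over the surroundings DPF2 stood 2.87-fold (2.27 to 3.59) and H3K14cr 2.14-fold (1.77 to 2.58). The ratio of pooled reads was 0.924 (0.683 to 1.24), with an adjusted p of 0.854 by limma, and the sign of the log2 difference of -0.13 turned under other scalings.

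A second raised stretch lay within GFI1B. At chr9:135857001-135862000 both antibodies were called over the chromosome mean in 5 tiles in a row, with means of 2.49 CPM for DPF2 and 2.82 CPM for H3K14cr. Its tile chr9:135860001-135861000 had 3.08 and 4.66 CPM for DPF2 and 3.13 and 3.05 CPM for H3K14cr, and the counting interval of the ratio (1.32, 0.971 to 1.8) covered 1. The tile that holds a start of GFI1B by general knowledge, chr9:135854001-135855000, had 1.41 and 2.48 CPM for DPF2 and 3.03 and 2.59 CPM for H3K14cr. It was called over the chromosome mean for H3K14cr and not for DPF2. Both DPF2 libraries still stood above the chromosome mean of 0.420 CPM, and the lower of them is the shallowest library. The missing call therefore does not show that DPF2 was level with the chromosome there. H3K14cr had 5 tiles called in a row over that start, at chr9:135851001-135856000, and 7 at chr9:135866001-135873000, where DPF2 was called in 2 separate tiles.

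ZFPM1 had the longest raised stretch of the 6 windows. H3K14cr was called over the chromosome mean in 18 tiles in a row at chr16:88518001-88536000, with a mean of 3.73 CPM, and in 9 at chr16:88557001-88566000, with a mean of 3.58 CPM. DPF2 was called inside the first of these in runs of 7, 6 and 2 tiles with means of 3.61, 2.76 and 3.34 CPM. The gene's 5′ end lies near the left edge of the first stretch and the second lies within the gene, by general knowledge. At the tile of the 5′ end, chr16:88519001-88520000, DPF2 had 6.04 and 4.21 CPM and H3K14cr 3.22 and 3.69 CPM. Its neighbours ran the other way: chr16:88518001-88519000 had 3.47 and 3.0 CPM for DPF2 and 4.32 and 5.70 CPM for H3K14cr, and chr16:88520001-88521000 had 3.21 and 3.83 CPM for DPF2 and 6.07 and 5.07 CPM for H3K14cr. In these 3 adjoining tiles the libraries of the antibodies did not overlap and the ratios were 1.39 (1.05 to 1.85), 0.614 (0.453 to 0.826) and 0.661 (0.495 to 0.875), in the order named, but limma called none of them. They were chosen after their values were seen.

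The tiles that stood highest over their surroundings lay in the second stretch. The highest for DPF2, chr16:88558001-88559000, had 5.14 and 4.81 CPM for DPF2 and 4.32 and 4.78 CPM for H3K14cr, with folds of 2.54 (2.08 to 3.08) and 2.03. Both DPF2 libraries lay above both H3K14cr libraries there, and the tile was not called different (ratio 1.07, 0.819 to 1.4, adjusted p = 0.851 by limma). The highest for H3K14cr, chr16:88560001-88561000, had 3.34 and 4.06 CPM for DPF2 and 4.60 and 6.28 CPM for H3K14cr, with folds of 1.93 and 2.54 (2.16 to 2.97). It was not called either (adjusted p = 0.202). The tile called different, chr16:88516001-88517000, lies just left of the first stretch. It had 0.771 and 0.751 CPM for DPF2 and 1.65 and 2.30 CPM for H3K14cr, a ratio of 0.369 (0.198 to 0.651) and a log2 difference of -0.96 (adjusted p = 0.0298).

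BCL11A had the lowest levels of the 6 windows, and its raised tiles gathered at the gene's 5′ end. H3K14cr was called over the chromosome mean in 7 tiles in a row at chr2:60776001-60783000, with a mean of 2.01 CPM, and DPF2 in 2 single tiles of that stretch. In one of the 2, chr2:60781001-60782000, DPF2 had 3.08 and 1.95 CPM and H3K14cr 2.02 and 2.36 CPM. By fold, the highest H3K14cr tile was chr2:60778001-60779000, with 1.28 and 1.43 CPM for DPF2 and 2.67 and 2.36 CPM for H3K14cr. The fold over its surroundings was 1.55 for DPF2 and 2.77 (2.16 to 3.5) for H3K14cr, and the ratio of 0.555 (0.347 to 0.866) was not called by limma (adjusted p = 0.144). The highest DPF2 tile by fold lay inside the gene, at chr2:60757001-60758000, where the level was lower than at chr2:60781001-60782000, with 1.93 and 1.5 CPM for DPF2 and 0.827 and 1.32 CPM for H3K14cr. Its ratio of 1.46 had an interval of 0.880 to 2.44 and it was not called (adjusted p = 0.412 by limma).

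Erythroid cells express BCL11A through a composite intronic enhancer, and 1 of its parts lies, by general knowledge, in chr2:60722001-60723000, a tile picked for that reason and not by the naming rule. It had 1.03 and 1.13 CPM for DPF2 and 1.01 and 0.633 CPM for H3K14cr. These are folds of 1.75 and 1.24 over the surroundings, and the tile was called for neither antibody by either background. Enrichment in this tile was not detectable at this depth, and the enhancer's other parts were not looked at separately.

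MYB held every tile of the 6 windows that was called over its surroundings. The highest, chr6:135502001-135503000, over the start of MYB by general knowledge, had 3.98 and 4.28 CPM for DPF2 and 5.88 and 5.82 CPM for H3K14cr. DPF2 stood 3.91-fold (3.14 to 4.82) over the surrounding 20 kb and H3K14cr 4.08-fold (3.48 to 4.75), and this was the tile called for both. Both H3K14cr libraries were above both DPF2 libraries, at a ratio of 0.714 (0.545 to 0.930), which limma did not call (adjusted p = 0.211). The next tile, chr6:135503001-135504000, had 2.95 and 3.23 CPM for DPF2 and 5.88 and 5.53 CPM for H3K14cr. It was called enriched for H3K14cr, at 3.73-fold (3.17 to 4.35), and not for DPF2, at 2.61-fold (2.02 to 3.33). Here the ratio was 0.552 (0.408 to 0.740), and limma called the tile higher in H3K14cr (log2 difference -0.79, SE 0.19, adjusted p = 0.01005). Over the whole block of 4 kb at chr6:135501001-135505000 DPF2 averaged 3.09 CPM, 7.52 times the chromosome mean, and H3K14cr 4.81 CPM, 11.8 times.

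At the left end of the window, where HBS1L starts by general knowledge, the antibodies had their highest levels in adjoining tiles. In chr6:135375001-135376000 DPF2 had 1.03 and 1.43 CPM and H3K14cr 3.03 and 2.99 CPM. H3K14cr was called there at 3.41-fold (2.73 to 4.22), DPF2 was not at 1.70-fold (1.12 to 2.47), and limma called the tile higher in H3K14cr (ratio 0.425, 0.265 to 0.662, log2 difference -1.03, SE 0.24, adjusted p = 0.00819). In the next tile, chr6:135376001-135377000, DPF2 had 2.83 and 1.95 CPM and H3K14cr 1.84 and 1.96 CPM. DPF2 stood 3.24-fold and H3K14cr 2.04-fold over the surroundings, and DPF2 was called there once its libraries were summed.

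The interval between the starts of HBS1L and MYB, 124 tiles at chr6:135377001-135501000, had median levels above the genome's. They were 0.545 CPM per tile for DPF2 and 0.690 for H3K14cr, against 0.284 and 0.248 over all covered tiles. In the interval 0 tiles were called over their surroundings for DPF2 and 1 for H3K14cr, against 0.221% and 0.425% of all covered tiles. Over the chromosome mean 0 and 4 were called, against 1.11% and 2.12%. Whether the interval differs from the genome was not tested. By fold alone, 7 tiles reached at least 2 in both DPF2 libraries (5.65%, against 5.9% of all covered tiles). For H3K14cr 5 tiles did (4.03%, against 6.26%). For both antibodies 2 tiles did, and the genome's share of such tiles was not computed. The called tile, chr6:135467001-135468000, lies 35 kb upstream of the tile at the start of MYB. It had 1.67 and 1.73 CPM for DPF2 and 2.57 and 2.02 CPM for H3K14cr, with folds of 3.62 (2.53 to 5.01) and 4.03 (3.09 to 5.15). For DPF2 the fold passed 3 in both libraries, at 3.25 and 3.87, and the p-value did not pass in replicate 1, which held 13 reads there (adjusted p = 0.0373 in the one-sided Poisson test). With summed libraries DPF2 was called at this tile and at chr6:135484001-135485000, where it had 1.16 and 1.88 CPM against 1.38 and 1.27 CPM for H3K14cr.

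**Figure D3:**
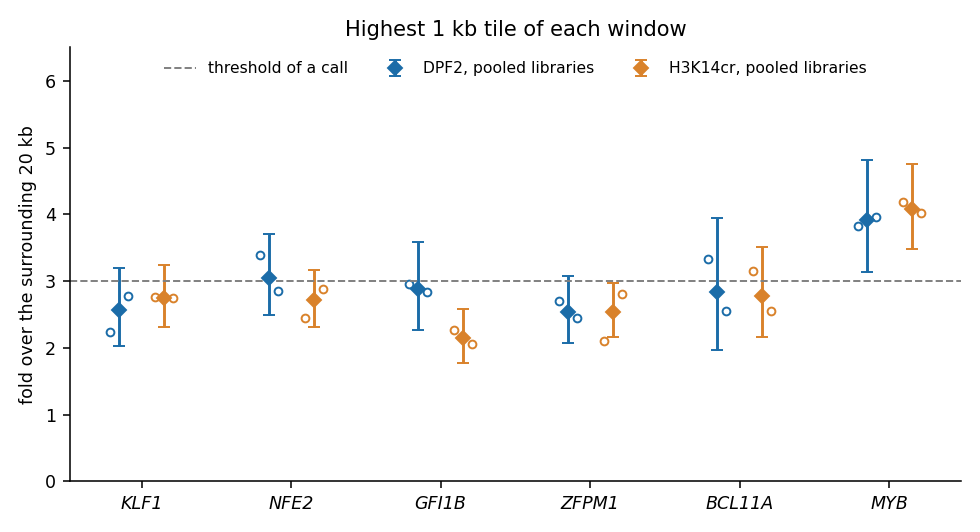
Fold over the surrounding 20 kb at the highest tile of each window, chosen for each antibody by its lower library. Diamonds are pooled libraries with 95% Poisson intervals, open circles are single libraries, and the dashed line is the 3-fold threshold, which both libraries of both antibodies pass at MYB alone.

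Within the windows the antibodies went up and down together from tile to tile. The Spearman correlation of pooled DPF2 with pooled H3K14cr levels was 0.821 across the 13 KLF1 tiles, 0.865 for NFE2, 0.850 for GFI1B, 0.870 for ZFPM1, 0.764 for BCL11A and 0.832 for MYB. Between single libraries of different antibodies it was 0.608 to 0.724 in BCL11A and 0.772 to 0.873 in KLF1. Between the libraries of an antibody it was 0.670 for DPF2 and 0.706 for H3K14cr in BCL11A, and 0.847 and 0.897 in KLF1. These are descriptions across neighbouring tiles, which share libraries, depth and base composition and are not independent.

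DPF2 reads were fewer than H3K14cr reads, in shares of their libraries, in 5 of the 6 windows. The ratio of DPF2 to H3K14cr over a whole window was 0.756 (0.681 to 0.838) for KLF1, 0.790 (0.727 to 0.859) for NFE2, 0.801 (0.750 to 0.856) for GFI1B, 0.864 (0.827 to 0.902) for ZFPM1 and 0.876 (0.835 to 0.919) for MYB. For BCL11A it was 0.984, with an interval of 0.922 to 1.05 that covered 1. Over all the genome's tiles in the test below, the median log2 difference (DPF2 minus H3K14cr) lay the same way, at -0.11. In the tiles called over the chromosome mean for H3K14cr the ratio was 0.692 in KLF1, 0.765 in GFI1B and 0.719 in MYB, and in the other tiles of these windows it was 0.927, 0.909 and 0.930. In NFE2 it was 0.789 in the called tiles and 0.805 in the others, in ZFPM1 0.846 and 0.886, and in BCL11A 0.873 and 1.01. The intervals of called and other tiles overlapped in every window except MYB. Since the first set was picked by H3K14cr calls, a lower ratio in it is partly given by that choice.

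**Figure D4:**
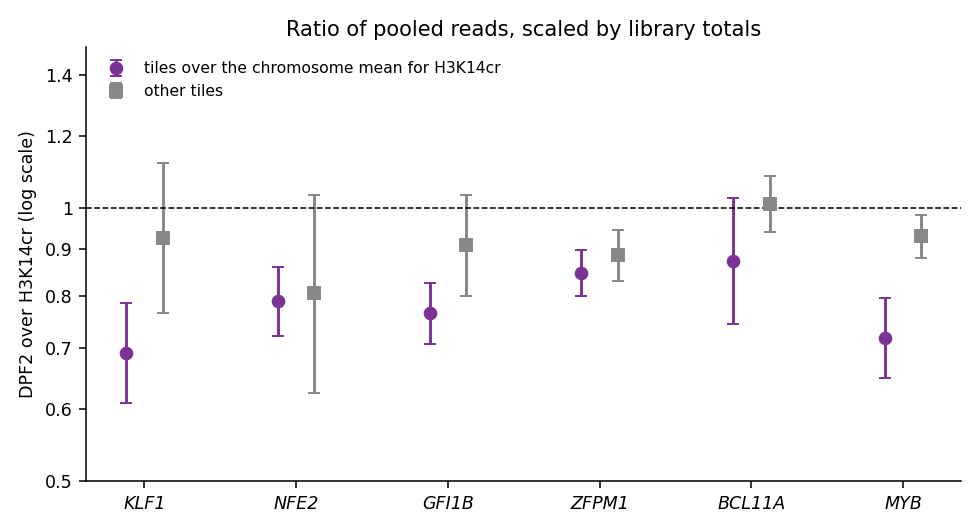
Ratio of DPF2 to H3K14cr pooled reads, scaled by library totals, on a log axis with exact binomial 95% intervals. Circles are the tiles of a window called over the chromosome mean for H3K14cr and squares its other tiles, and circles run from 0.692 in KLF1 to 0.873 in BCL11A.

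Tested tile by tile, few differences held. limma on log2(CPM + 0.5) was fitted to all 255612 tiles of the genome with a mean of at least 10 reads, 264 of them in the windows, and calls needed an adjusted p (Benjamini-Hochberg) no higher than 0.05. Of the 264 tiles in the windows 0 were higher in DPF2, against 0.202% of all tiles tested, and 6 in H3K14cr, against 1.19%. These 6 were the KLF1 tile, the 2 NFE2 tiles, the ZFPM1 tile and the 2 MYB tiles described above. At an unadjusted p of at most 0.05, 3 of the windows' 264 tiles were higher in DPF2 and 52 in H3K14cr. Over all tiles tested the shares were 2.5% and 9.91%. edgeR called 0 and 9 tiles in the windows, and 578 and 3431 over all tiles tested. The log2 difference (DPF2 minus H3K14cr) had a median of -0.16 in the windows and -0.11 over all tiles tested. By window it was -0.25 for KLF1, -0.30 for NFE2, -0.29 for GFI1B, -0.14 for ZFPM1, 0.01 for BCL11A and -0.09 for MYB. These differences are on the scale of library totals. With median-of-ratios factors the medians were -0.04 in the windows and 0.00 over all tiles tested, and 0 tiles of the windows were called in either direction. The number of calls also moved with the libraries used, in the windows as over the genome. Without H3K14cr replicate 1, or without H3K14cr replicate 2, 0 tiles of the windows and 37 or 39 of all tiles tested were higher in H3K14cr, and without DPF2 replicate 2 there were 21 and 8019. In such fits 1 antibody has a single library, which is assumed to vary like the pair of the other. At the most different tiles of MYB and NFE2 the log2 differences moved little without an H3K14cr library, and more without a DPF2 library. The MYB tile at 135375001 had -1.03 and -1.04 without H3K14cr replicate 1 and replicate 2, and -0.867 and -1.2 without those of DPF2. In the same order the NFE2 tile at 54692001 had -1.1 and -0.99, and -0.776 and -1.32. The ZFPM1 tile at 88516001 had -1.15 and -0.773, and -0.974 and -0.952.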

How the data were processed

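ChIP-seq signal was analysed in 4 K562 libraries, 2 for DPF2 and 2 for H3K14cr, with group and replicate number from the titles. Per the labels' protocols, cells were fixed with formaldehyde, sonicated and immunoprecipitated. The submitters' processing notes name Bowtie2 and the builds mm9 and hg19, without versions. That the coordinates are hg19 was inferred: the cells are human, and the bins of chromosome 1 extend beyond its length in GRCh38. How duplicates were treated, and which tool made the bins, is not given in the sources used here. Each deposited signal file holds 100 bp bins on its own grid, with values the authors scaled to 10000000 reads. Dividing by the value of 1 read gave whole reads within 0.005 for all but 1 and 3 values in the DPF2 libraries and 4 and 0 values in the H3K14cr libraries.

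Reads were summed in 1 kb tiles over the whole genome. Enrichment was called by Poisson tests whose background was the chromosome mean or, where larger, the average of 10 tiles on each side. Antibodies were compared with limma (trend) on log2(CPM + 0.5) over every tile averaging 10 reads or more, since the unit allows a log-scale test; such differences understate the change of low tiles. edgeR and DESeq2 on the recovered reads were alternatives, as were tile size and grid, background, fold, depth, scaling, pseudocount, filter, replicate block and each library left out. Named tiles are, by rule, all called enriched, all called different with a pooled ratio of at least 2 in either direction, and the highest of each antibody where none was called. The gene windows and lists were chosen with earlier results of these data known. Genes were placed on tiles from general knowledge, since no annotation of hg19 was used; the other genes of the erythroid network and markers of other lineages were not analysed here. The tests were tested on simulated data. The R packages were limma 3.58.1, edgeR 4.0.16 and DESeq2 1.42.0 under R 4.3.3, and the Python 3.11.15 packages scipy 1.17.1, numpy 2.4.6, matplotlib 3.10.9 and pandas 2.3.3. Without molecular identifiers, reads may not be independent molecules.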

Additional observations from a re-analysis of the deposited data

How the results depend on the processing

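With libraries thinned to the shallowest, 4294 and 7755 of all covered tiles were called for DPF2 and H3K14cr, against 5731 and 11049 at full depth, while the windows had 2 and 3. At tiles of 150 reads or more the DPF2 libraries differed beyond sampling noise, so intervals there are too narrow. Leaving out a library for the window totals was added after seeing the data. Of the recomputed values, 170 of single tiles and 125 of summaries had the same direction and the same call or, for counts and values with no test, stayed within 1.5 times or within the error. Their sizes could still move. Of the other single-tile values, 29 lost their call, 2 gained one and 3 turned in sign. All 29 belonged to the 5 named tiles called different, and the unchanged values include tiles that stayed uncalled. Of the other summaries, 19 were lower, 21 higher and 18 moved beyond their counting interval. The cause was not tested where a count or value moved, except that a chromosome background asks for less than the larger of both backgrounds and a fold of 2 for less than a fold of 3.

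Tiles called for DPF2 (1 in the main analysis) numbered 2 with 500 bp tiles, 3 with the grid shifted by 500 bp, 59 over the chromosome mean, 4 without direct neighbours in the background, 5 at a fold of at least 2, 0 at a fold of at least 5, 5 with summed libraries, 2 with thinned libraries and 1 to 5 with a library left out (4 without DPF2 replicate 1, 5 without DPF2 replicate 2). Tiles called for H3K14cr (4) numbered 1 with 2 kb tiles, 100 over the chromosome mean, 15 at a fold of at least 2, 0 at a fold of at least 5 and 4 to 6 with a library left out. Tiles called for both (1) numbered 2 on the shifted grid, 57 over the chromosome mean, 2 without direct neighbours, 3 at a fold of at least 2, 0 at a fold of at least 5, 2 with summed libraries and 1 to 2 with a library left out.

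The fold at the highest tile moved beyond its counting interval for some windows. The highest tile was picked again under each setting, so a moved value can belong to another tile. With 500 bp tiles it was 3.71 for DPF2 at ZFPM1, 3.50 for H3K14cr at KLF1 and 6.21 for H3K14cr at MYB. On the shifted grid DPF2 had 2.37 at NFE2, 3.22 at ZFPM1 and 4.92 at MYB. Without direct neighbours it was 4.89 for DPF2 at MYB, and 3.39 and 5.46 for H3K14cr at KLF1 and MYB. Against the surrounding 50 kb DPF2 had 3.43 at KLF1, and H3K14cr had 4.17 at KLF1, 3.41 at NFE2, 3.22 at ZFPM1, 4.0 at BCL11A and 5.65 at MYB. With a library left out it was 2.74 to 4.14 for DPF2 at BCL11A, 2.09 to 2.75 for H3K14cr at GFI1B and 4.02 to 4.87 for H3K14cr at MYB. The upper values came from replicate 1 alone and from tiles other than those of the main analysis. In that library the main tiles had folds of 3.33, 2.27 and 4.18, in the same order.

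Tiles higher in H3K14cr (6, with 3032 over all 255612 tiles tested) numbered 0 with median-of-ratios factors (765 over all), 1 with TMM factors (1095), 0 with quantile normalization (176), 15 with a mean of at least 20 reads (5735 of 44380), 3 among enriched tiles alone, 0 with DESeq2, which gave no adjusted p at 242831 of 255612 tiles, and 0 to 21 with a library left out. With the replicate number as a block they numbered 10, and 0 were higher in DPF2. Same-numbered libraries had uncorrelated deviations (r = 0.0015 over 255612 tiles), so the numbers were not taken as pairs. Tiles higher in DPF2 (0) numbered 0 to 1 with a library left out. Of the named tiles, 5 were called; 0 were with median-of-ratios factors, 1 with TMM factors, 0 with quantile normalization, 3 with a mean of at least 5 reads, 3 among enriched tiles alone, 0 with DESeq2 and 0 to 4 with a library left out. The GFI1B tile at 135879001 turned to 0.0126 with median-of-ratios factors, 0.00108 with TMM factors and 0.123 with quantile normalization (log2), and was called under none of them.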
